A study of Drosophila melanogaster with 6 samples.

Results

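Among the genes that make fly heads of the sexes differ, and among those that build the sex-specific nervous system, 7 were read in whole heads of aged and young adult Drosophila melanogaster. They are the yolk protein genes Yp1 (CG2985), Yp2 (CG2979) and Yp3 (CG11129), the fat body gene fit (CG17820), tsx, and the transcription factor genes dsx (CG11094) and fru (CG14307). They were chosen by name from a list of 10, with every probe set whose single gene symbol matched, and gave 14 of the 18769 probe sets tested, or 7 of 11982 genes. RefSeq holds tsx as a synonym of Obp99b (CG7592), and its values below are those of the Obp99b probe set. The probe table used here names no probe set for the other 3 members, to, lncRNA:roX1 and lncRNA:roX2, and these were not analysed here.

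Heads came from flies 25 days old (aged, 3 arrays) or 2 days old (young, 3 arrays). All flies carried P{GawB}elavC155, a GAL4 insertion at the neuronal gene elav, in a background labelled W*. They were kept at one temperature under daily light and dark, and the labels give neither their sex nor the hour of collection. Expression is given in log2 units after RMA, so that a difference of 1 doubles the signal, and the median level of all probe sets was 4.92. Levels below that median were treated as near background, where RMA values can understate differences. Nothing in the labels tells whether replicate arrays stem from separate groups of flies. The p-values thus reflect spread among arrays that may be technical, and 3 arrays an age limit the precision.

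In flies, the splicing factors Sxl, tra and tra2 lead to sex-specific forms of the transcription factors encoded by dsx and fru. The female form of Dsx activates the yolk protein genes in the fat body and the male form represses them, while the male form of Fru shapes the neurons that drive courtship. The fat cells of the head also carry sex-biased transcripts, among them fit, which is higher in females and encodes a secreted satiety signal, and tsx, an odorant-binding protein gene found in male head fat. The roX RNAs belong to the male complex that raises transcription of the X chromosome.

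The arrays of the young group were not alike. A lead of 1 log2 unit or more over all other arrays was found for young replicate 2 at 155 probe sets and for aged replicate 3 at 25. Young replicate 3 had such a lead at 2 probe sets, and the other 3 arrays at 0. A level lower by 1 or more than on all other arrays was found at 2 probe sets for young replicate 1, at 1 each for young replicate 3 and aged replicate 1, and at 0 for the rest. The 2 probe sets led by young replicate 3 were those of Yp1 and Yp2. In the mean of 3 control transcripts (actin, eIF-4a and GAPDH), the 3' minus 5' difference was 1.28, 1.32 and 1.26 on aged arrays, against 1.74, 1.95 and 1.92 on young arrays. Its part in any age difference below was not tested.

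The yolk protein genes, whose products are packed into the egg by females, varied more among the young arrays than among the aged arrays. Yp1 stood at 6.05, 6.47 and 5.87 on aged arrays 1 to 3, against 4.02, 7.76 and 10.17 on young arrays 1 to 3. The aged arrays lay close together and the young arrays surrounded them, with young replicate 1 below the median of all probe sets. The young arrays differed among themselves by up to 6.15 on the log2 scale, a ratio of 70.9-fold, while the aged arrays stayed within 1.51-fold. By its SD among young arrays (3.10), Yp1 ranked 7 among all 18769 probe sets, whereas by its SD among aged arrays (0.31) it ranked 308.

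Yp2, which lies next to Yp1 in the genome, followed the same order of young arrays. It stood at 4.21, 4.45 and 4.24 on aged arrays, against 3.95, 5.24 and 8.54 on young arrays. All aged arrays and young replicate 1 fell short of the median of all probe sets, and 2 arrays lay above it, young replicates 2 and 3. Yp3 was well above that median everywhere, at 9.04, 8.96 and 8.73 on aged arrays, against 8.25, 8.60 and 9.85 on young arrays. Young replicate 3 was again the highest array and young replicate 1 the lowest, with a 3.04-fold range among young arrays for Yp3 and one of 24.1-fold for Yp2.

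The yolk protein genes were the transcripts by which young replicate 3 most exceeded the other arrays. Its lead over the next highest array was 3.30 for Yp2, 2.41 for Yp1 and 0.81 for Yp3, and these were its 3 largest leads among the 18769 probe sets. The next was 0.57, for Gyc89Db, a dim probe set at 4.43. The lead of young replicate 3 did not extend to the other female-biased member, since fit was 0.30 lower there than on young replicate 2. Over the 6 arrays, Pearson's r was 0.92 between Yp1 and Yp2, 0.85 between Yp1 and Yp3 and 0.38 between Yp1 and fit. Without young replicate 3 they were 0.90, 0.51 and 0.28. Between Yp2 and Yp3, r was 0.84 over the 6 arrays and 0.10 without young replicate 3. These values only describe a few arrays of 2 ages.

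**Figure D1:**
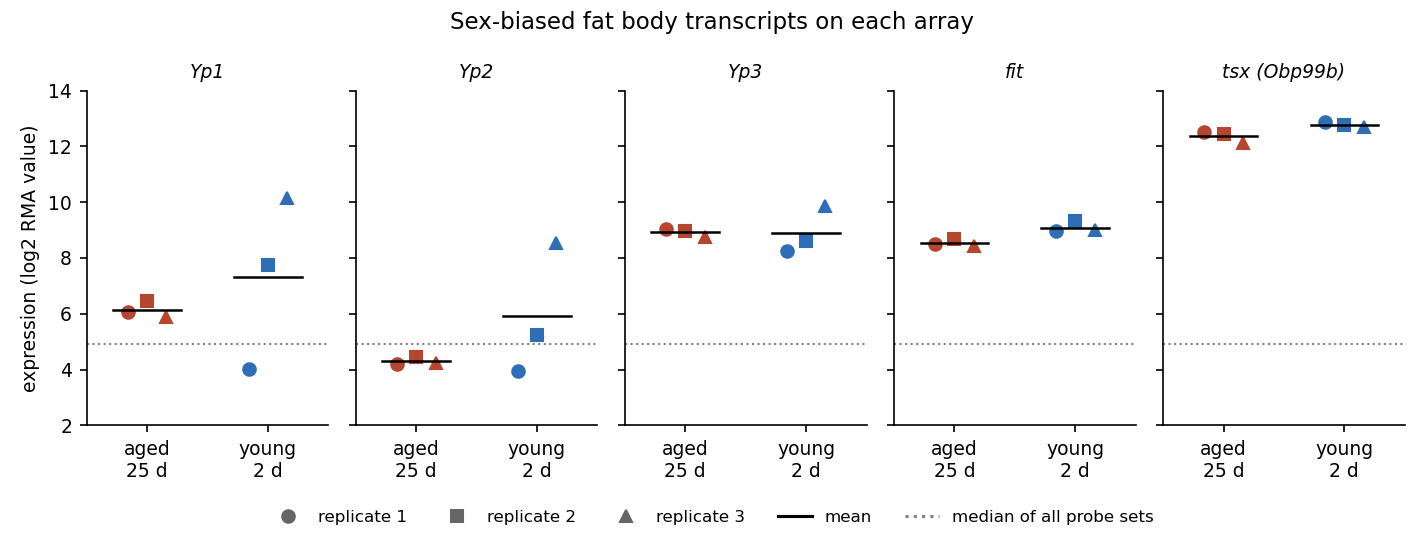
Level of each sex-biased fat body transcript on each array (log2 RMA value), with aged arrays on the left and young arrays on the right of each panel; symbols give the replicate number, black bars the mean of 3 arrays and the dotted line the median of all probe sets (4.92). Yp1 and Yp2 run from 4.02 to 10.17 and from 3.95 to 8.54 over the young arrays, while each of the 3 aged arrays lies below each of the 3 young arrays for fit and tsx (Obp99b).

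No yolk protein gene passed the test for age. Aged minus young was -1.18 ± 1.33 for Yp1 (log2 difference ± SE, limma adjusted p = 0.573), -1.61 ± 1.01 for Yp2 (adjusted p = 0.304) and 0.01 ± 0.37 for Yp3 (adjusted p = 0.985). The ages overlapped for all of them. The sign for Yp1 depended on which young arrays were used. Without young replicate 1 the difference was -2.83 and passed (adjusted p = 0.0291). Without young replicate 3 it was 0.24 and did not pass (adjusted p = 0.898), and against young replicate 1 alone it was 2.11 and passed (adjusted p = 0.00616). That last value assumes that the lone young array varies as the aged arrays do. For Yp2 the difference was -2.59 without young replicate 1 (adjusted p = 0.0861) and -0.30 without young replicate 3 (0.608).

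Markers of male reproductive tissue set young replicate 2 apart, and not young replicate 3. Of 13 measured accessory gland genes, which encode seminal fluid proteins, 11 were at least 1 higher on young replicate 2 than on every other array. Their median level was 2.89, 3.05 and 2.90 on aged arrays, against 2.88, 6.53 and 3.10 on young arrays. EbpII, a seminal protein gene of the ejaculatory bulb, reached 9.90 on young replicate 2 and was at most 2.87 on the other arrays. Of 20 testis genes, 10 were at least 1 higher on young replicate 2 than on every other array. So were 2 of 11 genes of cuticular hydrocarbon synthesis, Cyp4g1 (10.33) and FASN3 (4.99). Sums of log2 levels over a list are not total signal. For the accessory gland list this sum was 40.5 to 41.1 on aged arrays and 42.4 to 83.5 on young arrays. For the testis list it was 67.9 to 68.5 and 68.4 to 87.5.

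Ovary and eggshell markers did not follow the yolk protein genes. Of 18 such genes, 1 had a mean level at or above the median of all probe sets, and 0 stood 1 above the other arrays on young replicate 3. The list's median level was 3.33 to 3.50 on aged arrays and 3.49 to 3.56 on young arrays. Its sum of log2 levels was 66.0 to 67.3 and 66.3 to 69.9. The yolk receptor gene yl stood at 2.91 to 3.08 on aged arrays and 3.07 to 3.31 on young arrays. Head fat body markers, in the tissue of the head that makes yolk protein, had a median of 10.13 to 10.22 on aged arrays and 9.76 to 9.86 on young arrays. Their sum of log2 levels was 97.7 to 98.9 on aged arrays and 96.0 to 97.2 on young arrays. On young replicate 3 it was 96.3. Whether stray tissue or a share of females placed the young arrays apart was not tested.

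**Figure D2:**
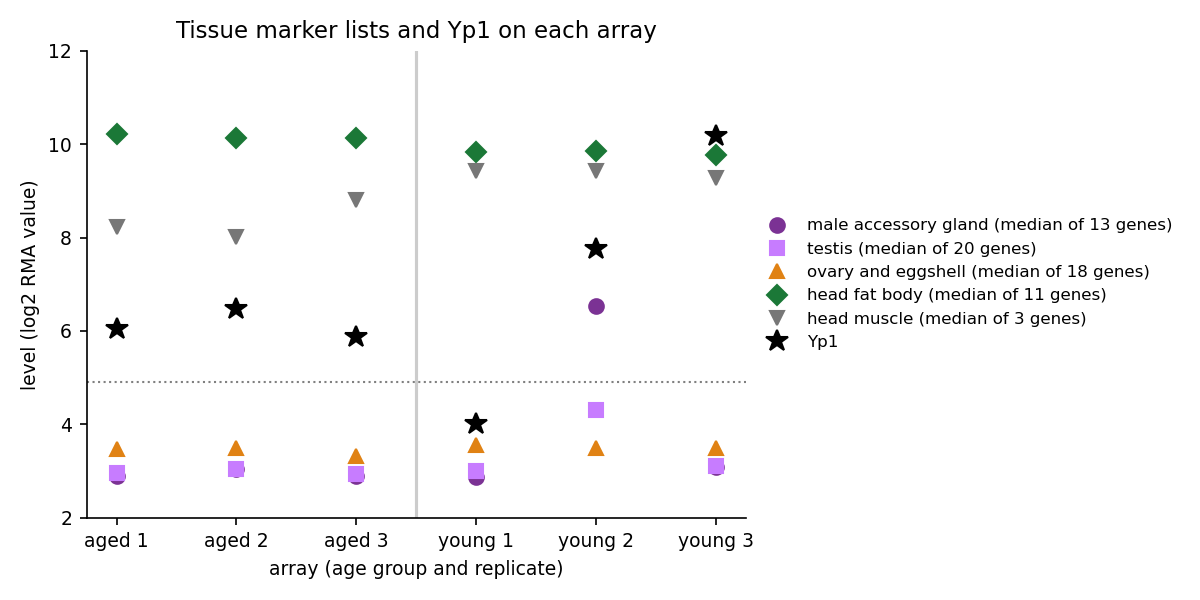
Median level of each tissue marker list (log2 RMA value) and the level of Yp1 on each array, aged arrays left and young arrays right of the grey line; the dotted line is the median of all probe sets (4.92). The accessory gland and testis medians are highest on young replicate 2 (6.53 and 4.31), where the testis median is still below the dotted line. Yp1 is highest on young replicate 3 (10.17) and lowest on young replicate 1 (4.02).

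Transcripts biased to either sex were measured on every array. Yp3 and fit on the female side and tsx (Obp99b) on the male side lay above the median of all probe sets on all 6 arrays. So did 2 further fat genes of males, Cyp4d21, a cytochrome P450 gene, at 10.04 to 11.23, and the lipase gene sxe2 at 11.14 to 11.33. Obp99a, another odorant-binding protein gene, was below that median on all arrays, at 4.24 to 4.74. No array came from heads of known sex, so these levels do not give the share of females or males in any collection.

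Of the 14 member probe sets, 5 passed the test for age, 3 of them higher and 2 lower in aged heads, and 9 did not pass. Of all probe sets, 21.7% passed, 13% higher and 8.7% lower, so that the members' 35.7% rests on few probe sets. The split of all calls, 2438 higher and 1633 lower, was 1859 and 1951 with each array centred on its median. Without aged replicate 1 the count of members was 2, and without young replicate 2 or 3 it was 3. At 8 of the 14 the aged and young arrays did not overlap, 4 with aged above and 4 with aged below, against 40.8% of all probe sets, 21.7% with aged above and 19.2% with aged below. The median difference was -0.03 over the 14 and -0.02 over all probe sets.

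Of the female-biased fat transcripts, fit was the one that passed, and it was lower in aged heads. It stood at 8.51, 8.66 and 8.44 on aged arrays, against 8.96, 9.31 and 9.003 on young arrays. Every aged array lay below every young array. The mean was 8.54 ± 0.11 in aged heads and 9.09 ± 0.19 in young heads (SD, n = 3 each), a difference of -0.55 ± 0.11 or 0.682-fold (limma adjusted p = 0.0124). The call was lost without aged replicate 1 (-0.54, adjusted p = 0.0504) and against young replicate 1 alone (-0.42, adjusted p = 0.0545).

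The male-biased transcript tsx (Obp99b) was lower in aged heads as well. Its probe set was among the brightest, at 12.50, 12.45 and 12.13 on aged arrays, against 12.86, 12.75 and 12.68 on young arrays. The ages did not overlap, and aged replicate 3 was the lowest array. Aged heads averaged 12.36 ± 0.20 and young heads 12.76 ± 0.09 (SD, n = 3 each), a difference of -0.40 ± 0.11 or 0.757-fold (limma adjusted p = 0.0382). The call was lost without any single array (adjusted p = 0.0514 to 0.0923).

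The falls of fit and tsx stood beside head fat body markers of which some rose. Of 11 such genes, 4 rose, 0 fell (0 lower at an unadjusted limma p under 0.05) and 7 did not pass, with a median difference of 0.07. Of all genes read through 1 probe set each, 26.5% passed in either direction. The 7 were Lsp2 (-0.24), Fbp2 (-0.15), upd2 (-0.11), Fbp1 (-0.06), AkhR (-0.04), apolpp (0.07) and Lsd-1 (0.27). The lipid transfer gene Apoltp rose by 0.70 ± 0.06, the fat lipase gene bmm by 0.71 ± 0.08, the lipoprotein assembly gene Mtp by 0.47 ± 0.07 and the lipid droplet gene Lsd-2 by 0.25 ± 0.07. The call of Lsd-2 was lost in 9 of 14 alternatives, among them leaving out any single array. In whole heads, fewer cells of a type and less RNA per cell cannot be told apart. Cyp4d21 stood at 10.61, 10.64 and 11.23 on aged arrays, against 10.39, 10.37 and 10.04 on young arrays. Its ages did not overlap, but its difference of 0.56 ± 0.18 did not pass (limma adjusted p = 0.0661), with aged replicate 3 the highest array. For sxe2 the difference was 0.06 ± 0.07 (adjusted p = 0.563), and of the 3 genes on this list of other sex-biased fat transcripts 0 passed with limma (1 at an unadjusted p under 0.05).

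The sex-determination factor gene dsx was higher in aged heads at both of its probe sets. The brighter one stood at 7.64, 7.57 and 7.63 on aged arrays, against 6.55, 6.998 and 6.68 on young arrays. All aged arrays lay above all young arrays, and the aged arrays were within 0.08 of each other. Aged heads averaged 7.61 ± 0.04 and young heads 6.74 ± 0.23 (SD, n = 3 each), a difference of 0.87 ± 0.12 or 1.83-fold (limma adjusted p = 0.00268). The difference was 0.773 to 0.997 with single arrays left out and passed each time (adjusted p at most 0.0161). The other dsx probe set was dim, at 3.40, 3.57 and 3.80 on aged arrays, against 2.80, 2.88 and 2.97 on young arrays. It differed in the same direction, by 0.71 ± 0.11 (adjusted p = 0.00473), with both ages below the median of all probe sets. The table does not say which sex-specific form of dsx either probe set reads.

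The 7 probe sets of fru, which has many transcripts from several promoters, went both ways. Of these, 4 had a positive and 3 a negative difference, over -0.30 to 0.49, 1 passed and 6 did not. The mean of 3 lay at or above the median of all probe sets, and that of 4 below it. The brightest stood at 8.22, 8.41 and 8.11 on aged arrays, against 8.51, 8.61 and 8.51 on young arrays. The ages did not overlap, aged arrays being the lower, and the difference of -0.30 ± 0.09 did not pass (limma adjusted p = 0.0535). It passed with each array centred on its median (adjusted p = 0.0333), and with quantile normalization (0.0383), a robust prior (0.0161), probe sets above the median level alone (0.024) or aged replicate 2 left out (0.0358).

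The fru probe set that passed was the dimmest of the 7, at 3.72, 3.92 and 3.66 on aged arrays, against 3.52, 3.26 and 3.08 on young arrays. Aged arrays were the higher, by 0.49 ± 0.13 (limma adjusted p = 0.0317), at levels below the median of all probe sets. The call was lost when any array but young replicate 1 was left out (adjusted p = 0.0566 to 0.108). The third by level also had the aged arrays above the young ones, at 5.42, 5.32 and 5.12 on aged arrays, against 5.03, 5.06 and 5.05 on young arrays (0.24 ± 0.09, adjusted p = 0.0977). The second by level overlapped between the ages, at 6.16, 6.34 and 6.06 on aged arrays and 6.19, 5.80 and 5.85 on young arrays (0.24 ± 0.12, adjusted p = 0.21). The other 3 lay between 3.77 and 4.58 on all arrays and differed by -0.12, 0.24 and -0.07. Probe sets of fru that read different transcripts are not replicates of each other, and the table does not say which promoter or sex-specific exon each reads.

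**Figure D3:**
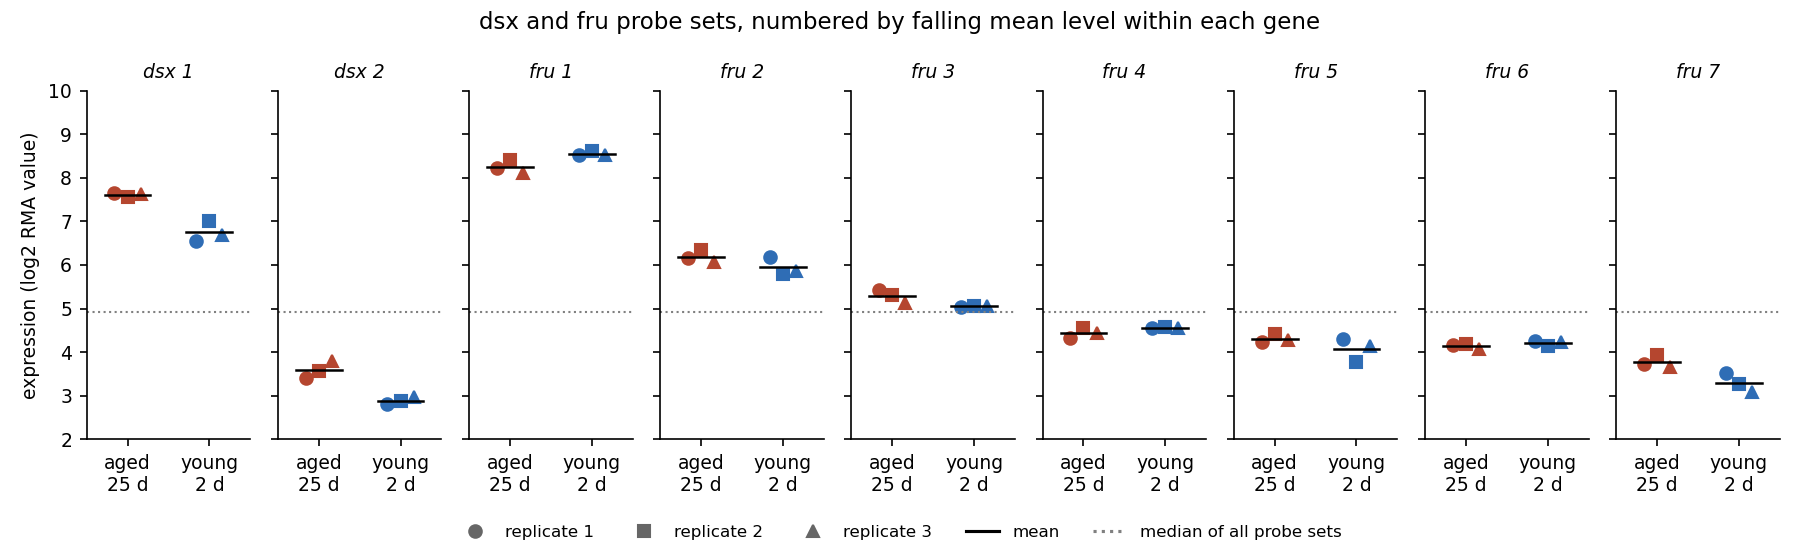
Levels of the dsx and fru probe sets on each array (log2 RMA value), numbered within each gene by falling mean level; aged arrays are left and young arrays right in each panel, bars are means of 3 arrays and the dotted line is the median of all probe sets (4.92). Both dsx probe sets are higher on all aged arrays, whereas the brightest fru probe set is lower and the dimmest higher on them.

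On a list of further sex-determination genes, 11 were measured. Among them 2 were higher in aged heads and 1 lower at the threshold, while 8 missed it, with a median difference of -0.04. Of all 11982 genes, each read through 1 probe set as in the lists, 26.5% passed, and the share on this list is close to it. The switch gene Sxl stood at 8.89, 9.08 and 9.04 on aged arrays, against 9.07, 8.97 and 9.04 on young arrays (-0.02 ± 0.08, limma adjusted p = 0.875), and tra differed by 0.14 ± 0.08 (0.239). The gene of the splicing cofactor tra2, which acts with Tra on dsx and fru transcripts in females, rose, at 8.30, 8.35 and 8.28 on aged arrays against 7.82, 7.95 and 8.03 on young arrays (0.37 ± 0.08, adjusted p = 0.0128). The call of tra2 was lost without aged replicate 1 or 2 (adjusted p at most 0.0557). Of the genes that write and read methylated adenosine in Sxl transcripts, nito rose by 0.47 ± 0.07 (adjusted p = 0.00435) and kept the call in all 14 alternatives. The other writer genes on the list, vir (-0.02), fl(2)d (-0.06), Hakai (-0.04) and Flacc (-0.18), did not pass. For Flacc the aged arrays lay below the young ones. Ythdc1 fell by 0.34 ± 0.08 (adjusted p = 0.0265). The call of Ythdc1 was lost in 7 of 14 alternatives, among them leaving out any aged array or young replicate 2 or 3.

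The proteins that work with roX RNAs on the male X chromosome were measured although the RNAs were not. Of 9 genes on the list, 1 rose, 0 fell (0 lower at an unadjusted limma p under 0.05) and 8 did not pass. Their median difference was 0.01, and of all genes 26.5% passed in either direction. The gene of the male-limiting subunit, msl-2, stood at 7.78, 7.64 and 7.62 on aged arrays, against 7.56, 7.66 and 7.61 on young arrays (0.07 ± 0.07, limma adjusted p = 0.547). Differences of the further subunit genes were -0.05 for msl-1, -0.05 for msl-3, 0.01 for mle and 0.27 for mof, none of which passed. The gene that rose was Unr, whose product helps Sxl block msl-2 translation in females. It stood at 7.72, 7.51 and 7.52 on aged arrays, against 7.17, 6.93 and 7.02 on young arrays (0.54 ± 0.09, adjusted p = 0.00685). Its call was lost against young replicate 1 alone (adjusted p = 0.0586).

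Genes listed as partners and targets of Fru and Dsx changed in both directions. Of 11 genes, 2 rose, 3 fell and 6 did not pass, with a median difference of -0.07. Of all genes, 26.5% passed in either direction, and a list of 11 is small. The genes of 2 chromatin proteins that Fru recruits, HDAC1 (0.56 ± 0.07, limma adjusted p = 0.00201) and the gene of heterochromatin protein 1 (0.46 ± 0.06, adjusted p = 0.00242), rose. The genes that fell were chinmo, which maintains male identity in the testis stem cell niche (-0.63 ± 0.08, adjusted p = 0.00238), the axon guidance receptor gene robo1 (-0.59 ± 0.10, adjusted p = 0.00599) and dati, which acts in female receptivity to mating (-0.46 ± 0.07, adjusted p = 0.00478). These 5 calls held in every alternative that could be run. The gene bon, whose product links Fru to both chromatin proteins, differed by -0.03 ± 0.09 and did not pass.

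Regulators through which hormones and tissue factors act on yolk protein genes also went both ways. Of 8 genes, 3 rose, 1 fell and 4 did not pass, with a median difference of 0.04. Of all genes, 26.5% passed in either direction, and a list of 8 is small. The GATA factor gene srp, which acts in the fat body, stood at 8.73, 8.65 and 8.78 on aged arrays, against 7.83, 8.23 and 7.86 on young arrays (0.75 ± 0.11, limma adjusted p = 0.00456), and kept the call in all 14 alternatives. The juvenile hormone receptor gene gce rose by 0.65 ± 0.15 (adjusted p = 0.0213) and the juvenile hormone response gene Kr-h1 by 0.25 ± 0.07 (0.0448), while the ecdysone response gene br fell by 0.51 ± 0.11 (0.015). Calls were lost in 6 of 14 alternatives for gce and 9 of 14 for Kr-h1, and for br against young replicate 1 alone. The hormone receptor genes EcR (-0.01 ± 0.07) and Met (-0.01 ± 0.08) did not pass.

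**Figure D4:**
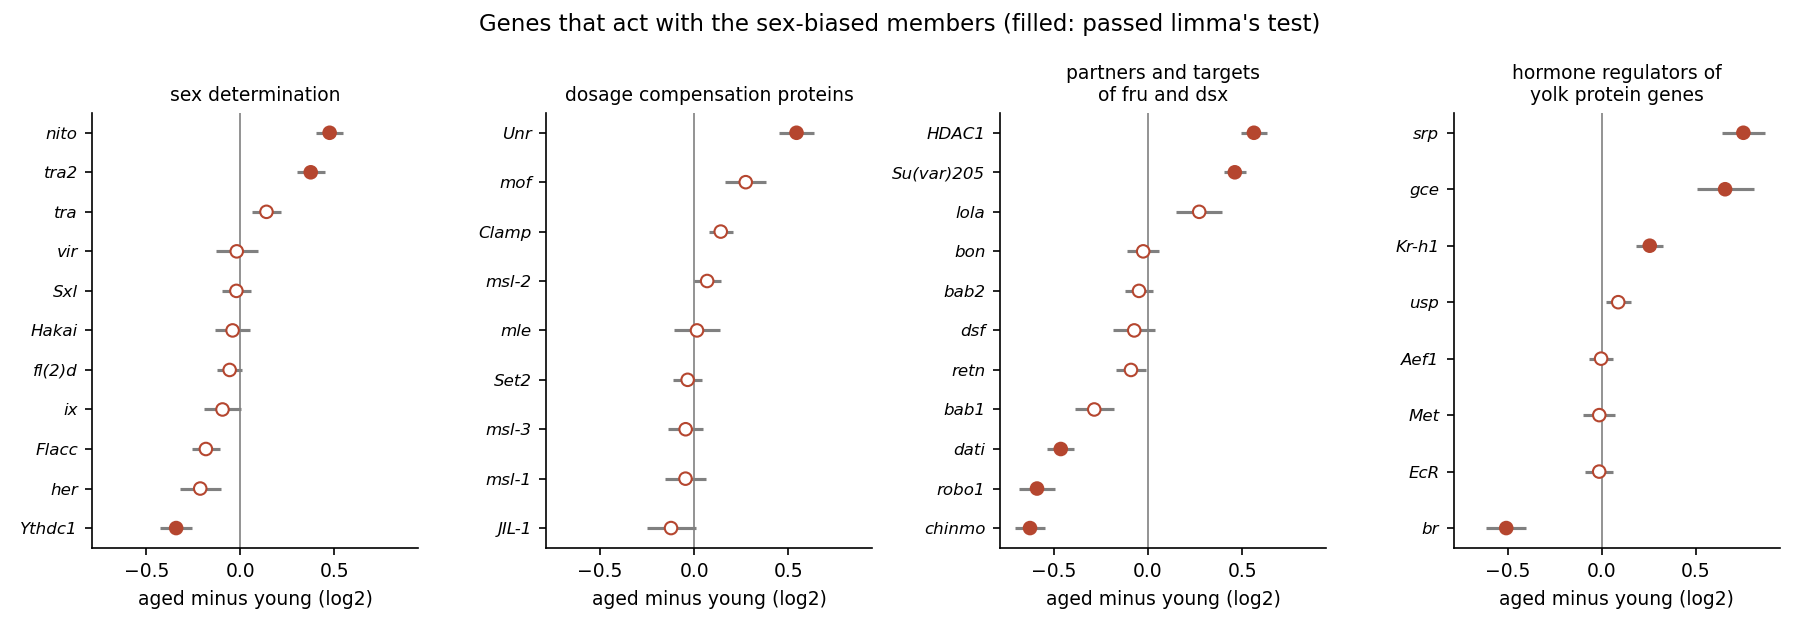
Aged minus young difference (log2, points with SE bars) for each measured gene of 4 lists that act with dsx, fru, the yolk protein genes and the roX RNAs; filled points passed limma's test after Benjamini-Hochberg adjustment over all probe sets. The filled points are 3 of 11, 1 of 9, 5 of 11 and 4 of 8 genes, against 26.5% of all genes. Each list except that of dosage compensation proteins has filled points on both sides of 0.

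The genes whose 6 array values ran most like those of Yp1, among 7536 genes at or above the median level, were NC2beta, CG31550 and CG15701 (Pearson's r = 0.98 each over 6 arrays). Their levels spanned 0.29 to 0.38 over the arrays, against 6.15 for Yp1, so the likeness is one of pattern and not of size. For fit they were Scsalpha1, CG1698 and CG12065 (r = 0.993 to 0.997), spanning 0.19 to 0.63 against 0.87 for fit. With 6 arrays such values are common, and 81 genes for Yp1 and 569 for fit had an r of at least 0.9.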

How the data were processed

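Total RNA of fly heads, extracted with Trizol and labelled with biotin, was hybridised to Affymetrix arrays, per the labels. The authors deposited log2 expression values made with RMA; the submitters' processing notes name RMA and limma, without versions or settings. Of 18952 probe sets, 183 controls were left out. Gene symbols came from the array platform's annotation, updated through RefSeq (13647 probe sets with 1 symbol, 402 with several and 4720 with none, both of these kinds tested but unnamed). Gene lists use 1 probe set per gene, that with the highest mean.

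The ages were compared on all 6 arrays in limma 3.58.1 (R 4.3.3; lmFit, eBayes, no covariates), adjusted with Benjamini-Hochberg over all probe sets at 0.05. All members were named; from each list up to 3 that passed with the largest difference, all where 5 or fewer passed in a direction, or else the smallest p. Yp2, Yp3, Sxl, tra, msl-2 and other genes named without passing were chosen for their roles, and likeness was scored for Yp1 and fit. Members and lists were chosen with earlier results of these data known. Alternatives were a robust trended prior, median centring, quantile normalization, a filter at the median level, array weights, leaving out shared probe sets (_s_at, _x_at), 1 probe set per gene, a block for the replicate number, and leaving out arrays.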

Additional observations from a re-analysis of the deposited data

How the results depend on the processing

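The count of probe sets past the threshold was 2302 to 4027 with single arrays left out, against 4071, and 3189 against young replicate 1 alone, an alternative added once the data had been seen. It was 3343 with the replicate number as a block. Deviations from the age means gave r = 0.10, -0.02 and -0.06 for same-numbered arrays, against -0.09 to 0.08 for the other pairs. The labels do not say whether the numbers pair the arrays, and values so small cannot decide it. The block left 5 members past the threshold, as without it. The count of members was 2 to 6 with single arrays left out. Over 190 values of single members under the alternatives, 154 kept direction and call, 16 lost the call, 10 gained one and 10 changed sign. The sign changes were all in yolk protein genes. Yp1 ranged over -2.83 to 0.24 with single arrays left out and was 2.11 against young replicate 1 alone. Yp2 ranged over -2.59 to -0.30 with single arrays left out, and was -2.51 with array weights and 0.35 against that array. Yp3 ranged over -0.31 to 0.49 with single arrays left out, and was -0.0312 with median centring, -0.0274 with quantile normalization and -0.27 with array weights. Against young replicate 1 alone Yp3 was 0.67 and passed (limma adjusted p = 0.0283). The causes were not tested, beyond the spread of the young arrays themselves. Signals near background limit what can be read from Yp2, the dimmer dsx probe set and 4 of the 7 fru probe sets.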

Other observations

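The takeout family, secreted proteins related to juvenile hormone binding proteins, was measured without to itself. Of 16 genes, 1 rose, 1 fell and 14 did not pass, with a median difference of 0.08. Of all genes, 26.5% passed in either direction. Jhbp5 (CG10407) had the large change. It stood at 5.59, 5.90 and 5.95 on aged arrays, against 7.21, 7.54 and 7.31 on young arrays, a difference of -1.54 ± 0.13 (limma adjusted p = 4.52e-04) that passed in all 14 alternatives. Jhbp1 (CG1124) rose by 0.37 ± 0.10 (adjusted p = 0.0344) and lost the call in 6 of 14. The neighbours of to, Jhbp7 (CG11852, 0.30 ± 0.11) and CG11854 (-0.16 ± 0.07), did not pass.

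Among genes of sex pheromones and their detection few passed, against 26.5% of all genes in either direction. Of 11 genes of cuticular hydrocarbon synthesis, 0 rose, 1 fell and 10 did not pass (0 higher and 4 lower at an unadjusted limma p under 0.05). The fatty acid elongase gene bond fell by 0.37 ± 0.07 (limma adjusted p = 0.0127), and lost the call without aged replicate 1 or with young replicates 2 and 3 both left out. Cyp4g1, the oenocyte P450 that makes hydrocarbons, reached 10.33 on young replicate 2, and stood at 4.84 to 5.44 on aged arrays and 4.55 to 4.63 on the other young arrays. Of 12 genes of courtship pheromone sensing, 0 passed with limma (2 at an unadjusted p under 0.05), and 2 had a mean level at or above the median of all probe sets. The pheromone-binding protein gene lush had the smallest p, with 0.67 ± 0.21 (adjusted p = 0.0574). Among tissue markers, all 3 measured muscle genes fell (Act88F, -2.17, Tm2, -1.32, and up, -1.03). In the testis list mia rose by 0.66 and ProtB fell by 0.41, in the ovary list orb rose by 0.31, and the accessory gland list had 0 genes past limma's threshold (0 at an unadjusted p under 0.05). Of 4 neuronal genes brp fell by 0.44, while nSyb (0.30), elav (-0.09) and futsch (-0.08) did not pass. Of 2 photoreceptor genes trp fell by 0.33, and Arr2 (0.03) did not pass. The calls of ProtB, orb, brp and trp were each lost in 6 to 8 alternatives. ProtB (2.40 to 3.08, highest on young replicate 2) and orb (2.62 to 3.07) were near background on every array.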
